A study of Sus scrofa with 2 samples.

Results

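Compact stretches of the pig genome with many reads in fetal fibroblasts (pFF) and far fewer in embryonic germ cell cultures (pEGC) are described here. They are chr14:105764301-105786249, chr5:54974000-54978000, chr8:40820000-40840000 and chr4:97086000-97089000, in the coordinates of the deposited read lists, and are called the chr14, chr5, chr8 and chr4 locus below. These 4 windows were chosen because of their measured read numbers in the same 2 libraries, so the size of the difference between the cultures is a description and was not tested. A read belonged to a window if its start lay in it. The 4 windows are part of a genome in which reads of both libraries formed 75535 covered regions (starts no more than 200 bases apart, at least 20 pooled reads).

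The study sequenced poly(A) RNA from 2 in vitro cultures of pig embryonic cells, with 1 library each and no replicate. The pEGC culture holds colonies grown from primordial germ cells of embryos collected from sows between day 17 and day 24 of pregnancy, seeded on STO cells, a mouse fibroblast line treated with mitomycin C, with LIF (10 ng/ml), SCF (10 ng/ml) and bFGF (3 ng/ml). The pFF culture holds fetal fibroblasts, for which the labels repeat the germ cell protocol and give no separate culture. Both come from Danish Landrace x Yorkshire crosses per the labels, while the series title names mini pigs. No treatment was given to either culture, and the labels do not say how many embryos went into a library. The labelled cell types could not be checked against marker genes, because the read lists carry no gene names. In bulk RNA, fewer cells of a type and less RNA per cell cannot be told apart, and aligned reads from mouse feeder cells cannot be told apart from pig reads.

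Spliced poly(A) RNA leaves a typical trace in short reads: exons are covered, and introns are covered thinly by RNA that is not yet spliced. A read that fits inside an exon can be placed without splicing, whereas a read across a junction often cannot, and an exon shorter than a read can hold none. In a library that keeps no strand, an F read marks the lower end of a cDNA fragment and an R read its upper end. Exon-like blocks were therefore defined on pFF reads as runs of bases with a coverage of at least 1% of the highest coverage of the window and at least 5 reads, joined over gaps of up to 10 bases. Levels are given as RPM, the reads scaled to a total of 1000000 reads outside a block of 15 kb on chromosome 6. This block took 30.6% of the pFF library and 11.5% of the pEGC library. Fold intervals are exact 95% intervals (Clopper-Pearson). They cover counting error only and not the spread between cultures, and without molecular identifiers several reads may come from 1 molecule.

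The chr14 locus had 109461 reads in pFF, or 11009.6 RPM, against 409 in pEGC, or 32.2 RPM. This is a 341-fold difference (310 to 377), and the locus alone took 1.10% of all pFF reads outside the chromosome 6 block. The chr5 locus had 4257 reads in pFF (428 RPM) and 4 in pEGC (0.315 RPM), 1358-fold apart with a wide interval (530 to 4985). The chr4 locus had 1926 reads in pFF (194 RPM) and 2 in pEGC (0.158 RPM), and the chr8 locus 963 reads (96.9 RPM) and 1 read (0.0789 RPM). Both folds came to 1228, with intervals of 340 to 10150.4 at chr4 and 219.9 to 48568 at chr8. With so few germ cell culture reads, the order of the 3 smaller loci by fold is not resolved. The order by pFF level was chr14, chr5, chr4 and chr8.

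Counting each combination of position and strand once changed these levels unequally. The chr14 locus then had 3851 positions in pFF against 239 in pEGC, a fold of 26.5 when scaled to all distinct positions. The chr5 locus had 159 against 4 (65.4-fold) and the chr4 locus 36 against 2 (29.6-fold). The chr8 locus had 494 against 1 and stayed at 813-fold. On average a position of the chr4 locus was read 53.5 times in pFF, one of the chr14 locus 28.4 times, one of the chr5 locus 26.8 times and one of the chr8 locus 1.95 times. By distinct positions the order of pFF levels was chr14, chr8, chr5 and chr4, so that chr8 moved from the lowest to the second place. A short covered stretch offers few positions, so this measure has a ceiling that the reads do not have.

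**Figure D1:**
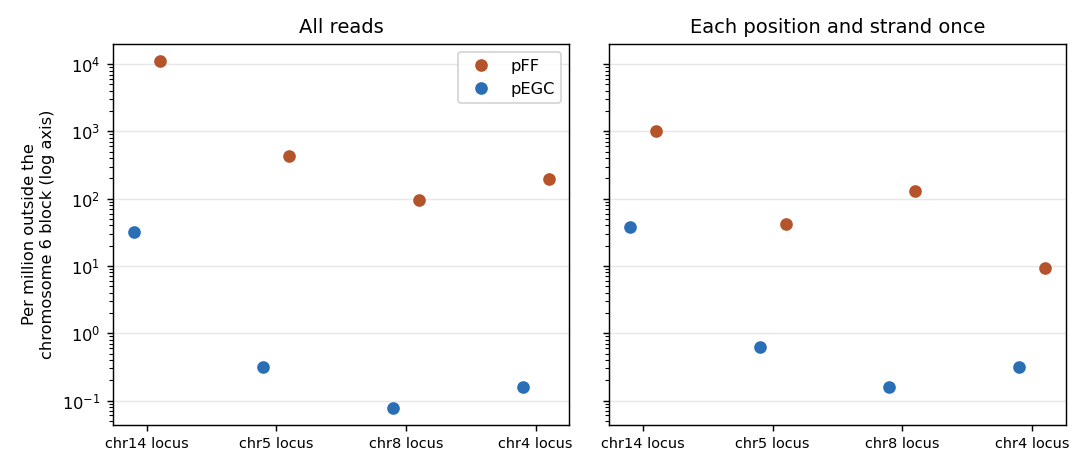
Level of each locus in pFF and pEGC (1 library each, 1 point per library, log axis), by all reads on the left and by distinct position and strand on the right, each scaled to its total outside the chromosome 6 block. The pFF point lies above the pEGC point at each locus on both scales, and the gap at chr14 shrinks from 341-fold to 26.5-fold while that at chr8 goes from 1228-fold to 813-fold.

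The 4 windows touched 10 of the covered regions, and 9 of them were at least 4-fold higher in pFF with 50 or more pFF reads and an interval beyond 2-fold. Across the genome 2840 of 32203 regions with enough reads met this rule, or 8.82%. Because the windows were picked on this very contrast, nothing is read from the difference between these shares. The tenth region, at chr8:40834182-40834960, had 46 pFF reads and 0 pEGC reads and so missed the minimum of reads.

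The chr14 locus consisted of short blocks, most of them set apart by wide gaps, as the exons of a spliced gene would be. Its 10 blocks were 73 to 165 bases wide and covered 5.25% of the window, yet 91.8% of the pFF reads lay wholly inside them. The gaps between neighbouring blocks ran from 17 to 4088 bases. Those between blocks 1 and 2 (17 bases) and blocks 4 and 5 (26 bases) were short, so these pairs are not read as separate exons. Closing gaps of up to 200 bases left 8 stretches, because blocks 1 and 2 joined to 274 bases and blocks 4 and 5 to 182 bases. The first block was at chr14:105767471-105767562 and the last at chr14:105782320-105782446. The widest, block 2, was at chr14:105767580-105767744 and held 6323 pFF reads.

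Between the blocks, pFF coverage was thin and broken by stretches without a read. The mean pFF coverage was 3077 reads per base inside the blocks and 8.05 outside, a ratio of 382, and the thin signal ran on to the upper edge of the window. In pEGC the mean coverage was 11.0 inside the same blocks and 0.0564 outside. With a lower threshold of 0.5% of the highest coverage, an eleventh block of 33 bases appeared at chr14:105786009-105786041, close to the upper edge.

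**Figure D2:**
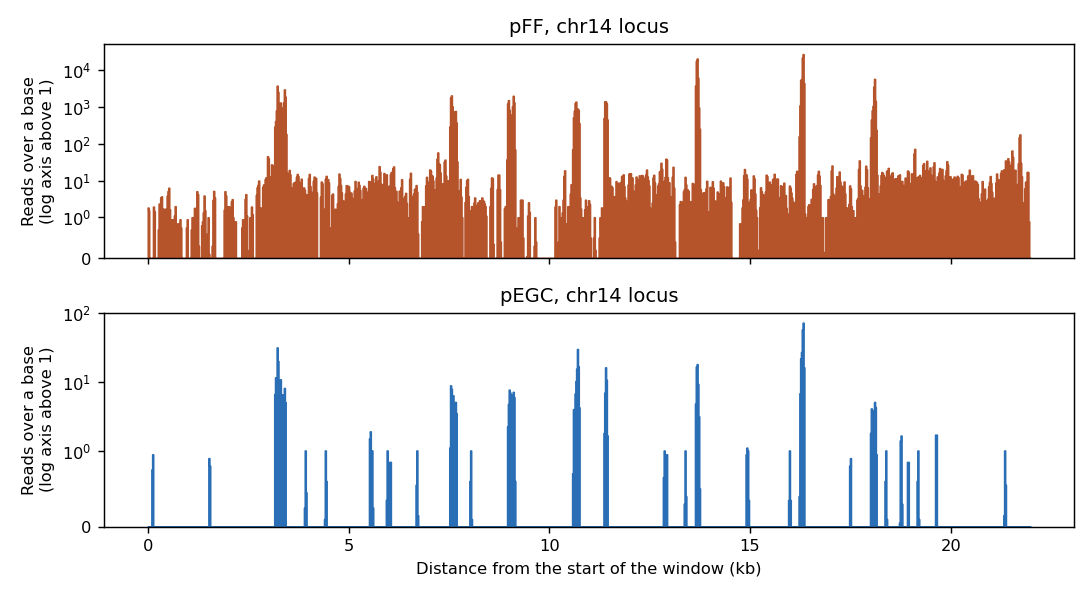
Coverage along the chr14 locus in pFF (upper panel) and pEGC (lower panel), as the mean number of reads over a base in bins of 20 bases, with an axis that is linear up to 1 and logarithmic above. The same narrow peaks stand out in both libraries, on a thin, broken signal in pFF (mean 8.05 outside the blocks) and on scattered single reads in pEGC (mean 0.0564).

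Reads were spread very unevenly over the blocks of the chr14 locus. Block 9, at chr14:105780541-105780659, held 38932 pFF reads, and block 8, at chr14:105777951-105778049, held 28923. Together they held 62.0% of the pFF reads of the window. Per base they had 327 and 292 reads, against 22.8 to 58.1 in the 8 other blocks. Nearly every place in these 2 blocks where a read could start was in use in pFF, 95.9% of 172 in block 9 and 96.2% of 132 in block 8. Without the 2 blocks the locus stood at 4185 RPM in pFF against 20.4 RPM in pEGC, and the fold was 205 (181 to 232).

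The upper part of the locus held most of the pFF reads, a lean that largely restates the depth of blocks 8 and 9. Block 10, the highest in position, had 58.1 pFF reads per base, against 292 in block 8 and 327 in block 9. The pFF reads thus did not peak at the end itself, and a lean without blocks 8 and 9 was not tested. With the blocks joined end to end, the lower 50% of their length held 19.0% of the pFF reads in blocks (18.7 to 19.2). The uppermost of 3 equal parts held 76.2%. By distinct positions these shares were 47.3% and 35.1%, but the deepest blocks had few unused places left, so this measure could not show such a lean. In pEGC the uppermost part held 51.6% of the 343 reads in blocks. The protocol keeps no strand, so the reads do not say which end is the 3′ end.

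Strand shares varied along the chr14 locus, without a strict alternation. In pFF, 97.8% of the reads in block 1 were on strand F and 7.09% of those in block 10, so the lowest block held mainly lower fragment ends and the highest mainly upper ends. Inside the locus, block 8 was at 98.4% F and block 9 at 17.9% F, and the 2 deepest blocks thus faced each other across 2491 bases. Blocks 4, 5 and 7 were at 17.9%, 17.1% and 23.3% F, and block 6 at 78.4%. Blocks 2 and 3 were mixed, at 44.1% and 64.8% F. Over the whole window the strands were balanced, at 49.4% F. Read pairs are not recorded, so which F and R reads belonged to one fragment is unknown.

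The 409 pEGC reads of the chr14 locus followed the same blocks. Of these, 343 lay wholly inside blocks that had been set on pFF alone, which is 83.9% (exact 95% interval 79.9 to 87.3), in 5.25% of the window. They used 239 positions, of which 215 were also used in pFF, and 379 of the 409 reads stood at such shared positions. In pFF, 52.5% to 96.2% of the places in each of the 10 blocks were in use. Most reads inside a block would therefore share a position, and nothing further is read from this. Both libraries had the same most frequent position, an R read starting at 105780612, with 7573 reads in pFF and 21 in pEGC. By its share inside the blocks, the residual signal was not spread evenly over the window. The share in pFF was 91.8%, above the interval for pEGC, so the placement was not the same in both libraries.

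Its distribution over the blocks was different in part. Block 9 held 29.1% of the reads in pEGC and 35.6% in pFF, whereas block 8 held 7.58% and 26.4%. Block 6, at chr14:105774902-105775051, held 12.0% in pEGC and 3.12% in pFF. The fold was therefore 88.9 at block 6 (67.1 to 120.4), with 3416 pFF reads and 49 pEGC reads, and 1190.1 at block 8 (838 to 1752), with 28923 and 31 reads. These are the lowest and the highest of the 10 block folds, picked after the values were seen. Their counting intervals do not overlap, but they take repeated reads as separate. A single position, an F read at 105774993, gave 11 of the 49 pEGC reads of block 6. By distinct positions block 6 had 195 in pFF and 24 in pEGC, and block 8 had 127 and 17. That count did not show the contrast, but pFF had few unused places left in block 8. Strand shares were alike at some blocks, as with 97.8% F in pFF and 87.2% in pEGC at block 1. The largest difference was at block 7, with 23.3% F in pFF and 66.7% in the 21 reads of pEGC. Whether pig cells, feeder cells or near-identical gene copies gave the residual pEGC reads was not tested.

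**Figure D3:**
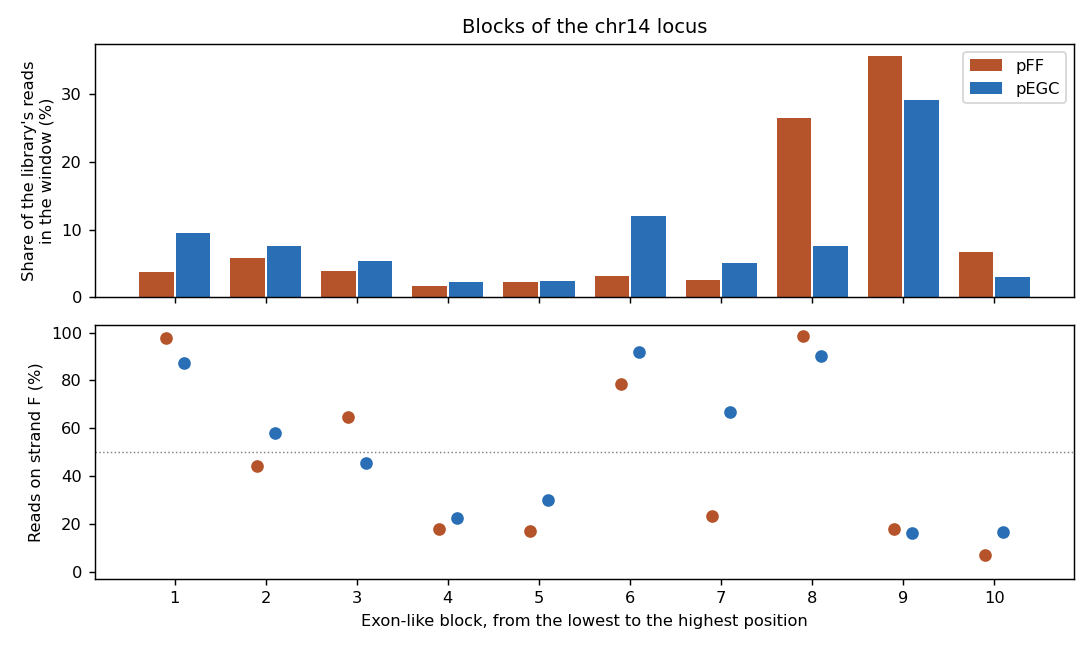
The 10 exon-like blocks of the chr14 locus from the lowest to the highest position, with the share of each library's reads of the window (bars, upper panel) and the share of reads on strand F (points, lower panel) for pFF and pEGC, 1 library each. Blocks 8 and 9 hold 26.4% and 35.6% of the pFF reads, block 6 stands out in pEGC with 12.0%, and the F share falls from 97.8% at block 1 to 7.09% at block 10 in pFF with swings in between.

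The identity of the chr14 locus is an inference only. In the RefSeq gene table of the assembly Sscrofa11.1, which is not taken to be the build of the files, ACTA2 lies on chromosome 14 between STAMBPL1 and FAS. ACTA2 encodes smooth muscle alpha actin, a contractile filament protein of smooth muscle and of myofibroblasts, and fibroblasts in culture often express it. The abundance in pFF, the chromosome and the series of short blocks make it a candidate. In the read lists, the 60 kb below the window held 13 pFF reads and 155 pEGC reads. Above it the next stretch, at chr14:105823648-105863530, had 736 pFF reads and 319 pEGC reads (2.94-fold, 2.58 to 3.37). The stretch above was thus also higher in pFF, though far less so than the locus, and the few reads below were mostly from pEGC. Whether these neighbours are STAMBPL1 and FAS was not tested. Actin genes share long stretches of coding sequence, and how the authors' alignment treated reads with several matches is not given in the sources used here, so reads of another actin gene cannot be told apart.

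The chr5 locus showed 2 blocks of 74 bases each, separated by 2610 bases. The block at chr5:54974494-54974567 held 2419 pFF reads and that at chr5:54977178-54977251 held 1709, together 97.0% of the pFF reads of the window. All of the 2419 reads in the lower block were on strand F, and 3.69% of those in the upper block. With both blocks joined, the lower 50% of their length held 58.6% of the pFF reads in them (57.1 to 60.1) and 43.5% of the distinct positions. The interval by distinct positions, of which there were 92, was 33.2 to 54.2 and included 50%. The lean seen in the reads was thus not seen by that count, and a turn to the other side is not shown. Of the places where a read could start, 48.8% of 82 were used in the lower block and 63.4% in the upper. In pEGC, 2 reads lay wholly in the lower block, both F, and 1 in the upper, an R read. The fourth, an R read starting at 54974544, began in the lower block and ran past its upper edge, and pFF had no read at that position and strand.

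The given window cut this locus short. One more block, with 1290 pFF reads and 8 pEGC reads, lay just above its end, at chr5:54978225-54978541, 317 bases wide. Its reads were spread over 218 positions and both strands, with 42.7% F, unlike the strand-specific blocks below it. Extended until 3000 bases held no read, the locus was 5.64 kb long with 5602 pFF reads and 12 pEGC reads, a fold of 595 (341 to 1153). The extended locus contains the window, so nothing is read from the overlap of their intervals. The covered region at chr5:54977627-54978993, which runs past the window, had 1352 pFF reads and 8 pEGC reads. Its fold of 216 (109 to 500) lay below the interval of the window (530 to 4985). These folds rest on 8 and 4 pEGC reads.

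Around it, 4 pFF reads and 0 pEGC reads lay in the 60 kb below the chr5 window. The next covered stretch below, at chr5:54896923-54909840, had 3 pFF reads and 146 pEGC reads, the opposite direction. By chromosome, small size and the wide block at one end, MGP is a candidate for this locus, again as an inference. In the gene table it lies on chromosome 5 between ERP27 and ART4. MGP encodes matrix Gla protein, a small secreted protein that depends on vitamin K and holds back calcification of cartilage and vessel walls. It is made by chondrocytes, vascular smooth muscle cells and fibroblasts.

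The chr8 locus had another shape. Its pFF reads formed 1 long stretch at chr8:40827465-40830785, which the rule broke into small blocks because coverage was shallow. With at most 67 reads over a base, the minimum of 5 reads set the limit, and 30 blocks of 5 to 281 bases resulted, of which 24 held at least 1 whole read. The first block, at chr8:40827465-40827522, held 36 reads, and the last, at chr8:40839685-40839717, held none whole. The widest block, at chr8:40830288-40830568, was also the one with the most pFF reads, 122. With gaps of up to 200 bases joined there were 3 stretches, of 3321, 386 and 172 bases, with 869, 35 and 5 pFF reads. The long stretch had 50.1% of its reads on strand F. Its 36 reads in the lowest block were all F, and 24.1% of the 87 reads in its highest block, at chr8:40830613-40830785, were F.

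End bias was weak at the chr8 locus, with 52.7% of the pFF reads in the lower 50% of the joined blocks (49.0 to 56.3) and 52.2% by distinct positions. Its only pEGC read, on strand F at 40830650, lay in the highest block of the long stretch, at a position with no pFF read. More pFF reads followed above the window. The 60 kb above it held 247 pFF reads and 1 pEGC read, of which a stretch at chr8:40878714-40892250 had 218 and 0. With these 60 kb added, the fold was 772 (213 to 6379.7), from 1210 and 2 reads. In the 20 kb below the window neither library had a read. No gene name is inferred for this locus.

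**Figure D4:**
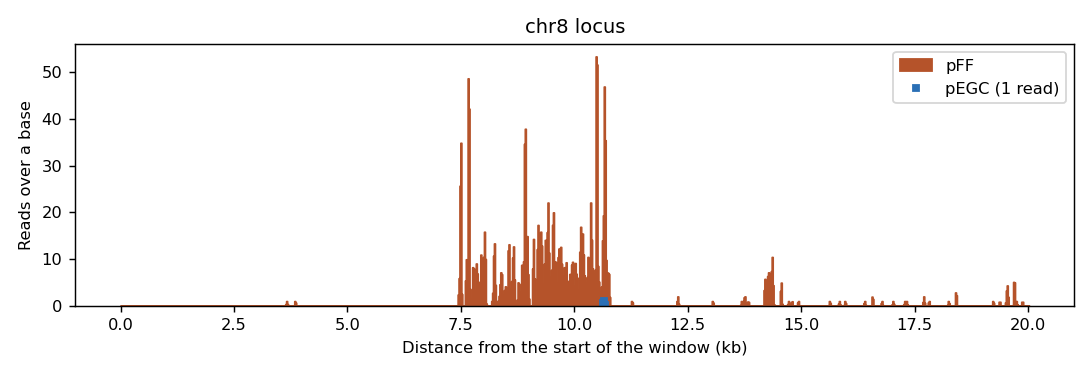
Coverage along the chr8 locus, as the mean number of reads over a base in bins of 20 bases on a linear axis, with pFF as the filled area and the single pEGC read as a square. Reads fill 1 stretch of 3321 bases with no gap over 200 bases, and small peaks stand to its right, in contrast to the separate narrow peaks of the chr14 locus.

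The chr4 locus was a single block of 67 bases at chr4:97087010-97087076, with 1908 of its 1926 pFF reads. All of these 1908 were on strand R, as were both pEGC reads, and 0.0519% of the pFF reads of the window were F. Few reads that could mark the lower ends of these fragments lay nearby: the window held 1 F read of pFF, and the 20 kb below it held 2 pFF reads and 4 pEGC reads in all. The 20 kb above held none in either library. The most frequent position, an R read starting at 97087018, had 453 pFF reads, or 23.5%. The 2 pEGC reads started at 97087020 and 97087036, where pFF had 335 and 37 reads. Of the block's pFF reads, 76.4% lay in its lower 50% (74.4 to 78.3), and 55.2% of its 29 positions.

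The neighbours of the chr4 locus behaved differently from each other. The next stretch below, at chr4:97029990-97065095, had 2154 pFF reads and 3001 pEGC reads (0.916-fold, 0.866 to 0.968). The next above, at chr4:97109465-97114769 and 22.4 kb away, had 2586 and 100 reads, 33.0-fold higher in pFF (27.0 to 40.7). Whether it belongs to the same transcript cannot be read from unpaired reads, and no gene name is inferred.

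Strand-specific blocks are a measure that the choice of the windows did not use. Of 2896 regions of the genome with at least 500 pFF reads, 61 (2.11%) had at most 5% or at least 95% of their reads on strand F. The median share was 50.1%. Of the 8 regions touching the windows with that many reads, 2 were among them, the lowest chr5 region (99.9% F) and the chr4 region (0.0519%). The next chr5 region, at 5.60%, lay just outside the limit, and the chr5 region that runs past the window stood at 43.0%. The 3 chr14 regions stood at 52.1%, 89.3% and 18.1%, and the long chr8 region at 50.3%. Of 985 regions with 1000 to 2999 pFF reads, the median had 535 distinct positions in 3949 bases, and 25 (2.54%) had at most 76, a limit taken from the chr5 region at 54976337. The chr5 region with 76 positions is among these 25 by the choice of the limit. The lowest chr5 region, with 64, and the chr4 region, with 36, were below the limit. The chr5 region that runs past the window, with 254, was not. Few positions also go with a short stretch, so nothing is read from this count. These are descriptions of 1 library, and no test was made.

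Reads were concentrated on few positions at 3 of the 4 loci. The most frequent positions that together held 50% of the pFF reads numbered 4 at the chr4 locus, 10 at chr5, 29 at chr14 and 116 at chr8. The most frequent position held 23.5% of the reads at chr4, 12.0% at chr5, 6.92% at chr14 and 2.39% at chr8. The frequent positions were not at a single base. At chr4 the first 5 started between 97087017 and 97087043, inside its only block. At chr5 the most frequent position, at 54974506, lay in the lower block and the next, at 54977210, in the upper block. Whether amplification or the short exon-like blocks gave these repeats was not tested.

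**Figure D5:**
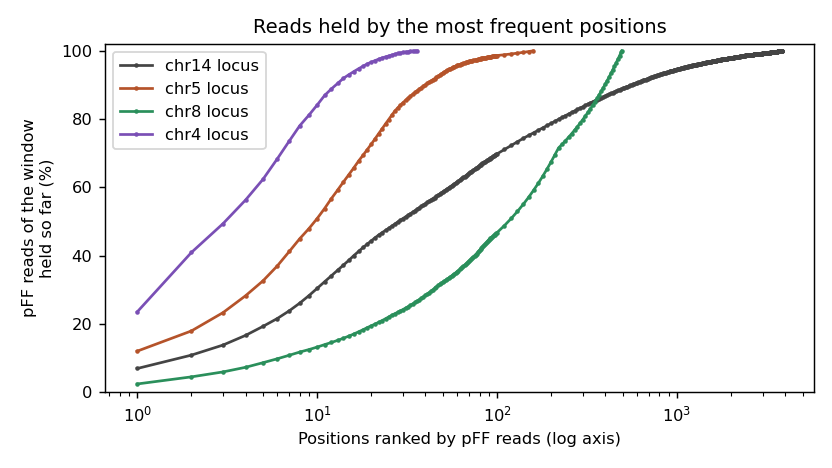
Share of the pFF reads of each window held by its most frequent positions, against the rank of the position (log axis), 1 line per locus. The chr4 line rises fastest, with 84.1% in 10 positions, followed by chr5 (50.9%), chr14 (30.4%) and chr8 (13.2%).

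The loci most like each member in the levels of both libraries were sought among 1344 loci made of regions higher in pFF, by the distance in log2 RPM over the 2 libraries. Nearest to the chr14 locus was chr12:24667493-24690234, at 6256 RPM in pFF against 22.0 in pEGC (distance 0.98), and then chr9:43289300-43296475, at 2709.9 against 33.1 RPM (2.02). The nearest to chr5 were chr15:41619155-41641495 (2489 and 6 reads, 0.97) and chr15:118246621-118250472 (1721 and 6 reads, 1.43). The nearest to chr8 were chr13:72269211-72275867 (766 and 1 reads, 0.33) and chr2:136028958-136033721 (486 and 1 reads, 0.99). The nearest to chr4 were chr6:62570092-62574135 (1336 and 3 reads, 0.79) and chr2:136738756-136749213 (1294 and 3 reads, 0.82). With 2 libraries this likeness rests on 2 values per locus.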

How the data were processed

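Poly(A) RNA was selected in 2 rounds, fragmented and copied from random hexamers per the labels' protocols, with no step that keeps the strand. The authors deposited read positions (chromosome, start, end, strand F or R) in 1 list per library, 14324517 lines each, every line spanning 34 bases and repeated lines kept. For the aligner, genome build and filters the sources used here give nothing. Outside the chromosome 6 block there were 12682180 pEGC reads and 9942279 pFF reads, with 6292802 and 3823858 distinct positions. Coordinates are those of the files with the first base counted as 1, except the windows, whose limits apply to the start column as deposited.

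Reads per window, RPM, exact intervals, blocks and regions were computed with Python 3.11.15, numpy 2.4.6, pandas 2.3.3 and scipy 1.17.1, and figures with matplotlib 3.10.9. A count of 0 was set to a floor of 3 reads in ratios. The rules for regions and blocks were tested on simulated data. The simulated exons lay far apart, so blocks with short gaps were not tried. The windows, the block rule and the candidate gene names were chosen with earlier results of these data known. Named are all 4 windows and, within each, the first, last, widest and deepest block and, chosen after their values were seen, others that differ. With 1 library per culture no test between cultures was possible. Other scalings, distinct positions, block thresholds and extended windows were tried as alternatives. No sequence is shown, since no genome of the files' build was used here.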

Additional observations from a re-analysis of the deposited data

How the results depend on the processing

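The 30 alternative values of the 4 level ratios (log2, pFF over pEGC) all kept their direction, from 4.73 to 10.78, and 24 stayed inside the counting interval of the reported value. The reported values were 8.42 at chr14, 10.41 at chr5 and 10.26 at chr8 and chr4. With distinct positions they were 4.73 at chr14, 6.03 at chr5 and 4.89 at chr4. At chr14, with its narrow interval, the value was 8.06 with all reads of the file, 8.75 with a trimmed mean of M-values and 7.68 without the 2 deepest blocks, an alternative chosen after seeing the data like the extended windows and the joining over 200 bases. The number of blocks at chr14 was 134 with distinct positions in place of reads, by which thinly covered stretches between the blocks pass, and that at chr8 was 3 with gaps of up to 200 bases joined. The share of chr14 pEGC reads inside blocks was 89.7% at a threshold of 0.5% and 34.5% at 5%, where blocks shrink to the peaks. It was 94.6% with distinct positions and 88.0% with gaps of 200 bases joined. At 5%, the blocks at chr14:105777951-105778024 and chr14:105780559-105780653 held 27646 and 36733 of the 109461 pFF reads. Together this is more than 34.5% of them, so the pEGC reads lay in the peaks less often than the pFF reads. The share of pFF reads in the lower 50% of the blocks inside the window changed with distinct positions. It went from 19.0% to 47.3% at chr14, from 58.6% to 43.5% at chr5 and from 76.4% to 55.2% at chr4. Regions at least 4-fold higher in pFF numbered 2840, 5453 without a minimum of reads and interval, and 1479 with distinct positions. No paired analysis was possible because each culture had 1 library. Depth limits the folds at chr5, chr8 and chr4, which rest on 4, 1 and 2 pEGC reads.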
